A study of Mus musculus with 6 samples.

Results

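The cells described here were the C1q-positive cells of a bone marrow section from 89-week-old wild-type mice, imaged with a predesigned panel with 44 added custom genes, in all 5047 genes besides the 3 of C1q. A cell was chosen by 1 rule, at least 3 transcripts of the complement genes C1qa, C1qb and C1qc together, and 4077 of the 140707 cells that passed the filter met it (2.90%, exact 95% interval 2.81 to 2.99%). They were set against the 120117 cells of the same section in which no C1q transcript was found. The series holds 6 sections with 521938 segmented cells, and each condition was represented by 1 section. The marrow was freed from fixed, frozen leg bones without decalcification, embedded in paraffin and cut at 5 µm, and the same panel was read in a section of wild-type E13.5 fetal liver. The labels give neither the number nor the sex of the 89-week-old mice. No difference could therefore be tested over animals, and every interval below covers counting error only.

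C1q is the recognition molecule of the classical complement pathway, and it also coats dying cells so that they are taken up. Its A, B and C chains come from 3 neighbouring genes, and tissue macrophages are their main source. In marrow, macrophages that sit at the centre of erythroblastic islands hold developing red cells by adhesion molecules, engulf the expelled nuclei, and recycle iron from haem.

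The C1q transcripts chose the cells, so their levels are given as a description. Members held a median of 4 C1q transcripts and at most 54. They comprised 2647 cells with 3 to 4 transcripts, 1187 with 5 to 9 and 243 with at least 10. Just outside the rule, 3968 cells held 2 transcripts and 12545 held 1. Members carried 19517 of the 39998 C1q transcripts of the section (48.8%). C1qa gave 44.3% of the C1q transcripts of members, C1qb 33.4% and C1qc 22.3%, all 3 read with 5 probe sets each. All 3 subunits were found in 1586 members (38.9%), at least 2 in 3679 (90.2%), and C1qa alone in 236 (5.79%). Cells with 1 C1q transcript showed nearly the same mix, with 41.5% C1qa, 36.8% C1qb and 21.7% C1qc. In the E13.5 liver, C1qb led instead, with 39.0% of the C1q transcripts of 301 C1q-positive cells, beside 30.8% C1qa and 30.2% C1qc.

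Start-site windows are printed for C1qb and C1qc, which are part of the rule that chose the cells. Those of Marco and Cd163 are printed because these were the scavenger receptor genes with the largest ratios. All are RefSeq windows of 300 bases on GRCm38.p6, read 5′ to 3′ on the gene's strand from 250 bases before the start to 50 after. Capitals mark AGGAAG and its reverse complement CTTCCT, letters that contain the GGAA core bound by ETS factors such as PU.1. C1qb lies at chr4:136886151-136886450 and C1qc at chr4:136892865-136893164, both on the minus strand, Marco at chr1:120504975-120505274 on the minus strand, and Cd163 at chr6:124304401-124304700 on the plus strand.
C1qb: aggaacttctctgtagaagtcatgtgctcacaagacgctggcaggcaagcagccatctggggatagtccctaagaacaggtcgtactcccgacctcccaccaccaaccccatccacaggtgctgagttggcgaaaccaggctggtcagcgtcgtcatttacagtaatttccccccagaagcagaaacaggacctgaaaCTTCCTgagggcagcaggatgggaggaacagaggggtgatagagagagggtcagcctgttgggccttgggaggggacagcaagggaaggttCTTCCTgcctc
C1qc: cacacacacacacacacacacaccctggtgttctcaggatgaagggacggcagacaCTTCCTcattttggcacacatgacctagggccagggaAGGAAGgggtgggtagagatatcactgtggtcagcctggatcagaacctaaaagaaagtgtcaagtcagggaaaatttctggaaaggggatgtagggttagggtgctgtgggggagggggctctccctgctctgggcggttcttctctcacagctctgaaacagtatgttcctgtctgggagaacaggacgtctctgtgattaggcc
Cd163: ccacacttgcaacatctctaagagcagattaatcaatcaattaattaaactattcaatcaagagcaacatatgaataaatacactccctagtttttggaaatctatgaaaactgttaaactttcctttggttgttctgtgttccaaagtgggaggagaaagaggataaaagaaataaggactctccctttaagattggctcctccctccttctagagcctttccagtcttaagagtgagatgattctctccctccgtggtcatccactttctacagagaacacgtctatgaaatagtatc
Marco: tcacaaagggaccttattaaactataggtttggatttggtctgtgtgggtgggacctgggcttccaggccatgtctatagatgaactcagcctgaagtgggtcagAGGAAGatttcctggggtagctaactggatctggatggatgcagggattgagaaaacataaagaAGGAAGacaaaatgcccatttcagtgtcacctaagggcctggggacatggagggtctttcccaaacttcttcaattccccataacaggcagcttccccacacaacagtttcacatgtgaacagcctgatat
C1qb, C1qc and Marco each held 2 matches and Cd163 none. The letters are common, since they were found in 35.4% of the 32851 windows in the table. Of the 150 genes at least 2-fold higher in C1q-positive cells, 107 had a window and 52 of these held a match (48.6%), beside 715 of 1782 over all evaluated genes (40.1%). A match is a run of letters, and no binding was measured.

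The label of macrophage was checked against 25 resident macrophage genes, of which 21 were on the panel. The 21 genes together had a summed level of 26418 c.p.m. (CPM, with the total taken over all transcripts outside the C1q genes) against 3871 c.p.m. in cells without C1q. A gene was evaluated when members held, or would be predicted from the other cells to hold, at least 50 counts. Of the 21 genes, 12 passed on the cells without C1q alone, and all 12 were at least 2-fold higher. Another 8 passed only through their counts in members, which requires a ratio above 1, and they are no further evidence for the label. The same filter bears on the counts of the lists below. Across all 2254 evaluated genes, 150 were at least 2-fold higher (6.65%), 11 were at least 2-fold lower (0.488%), and the median was 0.937-fold. Lyve1, a receptor of perivascular macrophages, was counted 10 times in members and could not be evaluated. Timd4, Vsig4, Spic and Clec4f are not on the panel. At least 3 transcripts of the resident list were held by 58.4% of members, by 2.55% of the cells without C1q and by 4.62% of the latter weighted to the members' depth.

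Members were larger and richer in RNA than the rest of the section. The median outside C1q was 130 transcripts (quartiles 80 and 204) against 57 (28 and 110) in cells without C1q, and the median outline was 41.8 µm2 against 27.6 µm2. Their nuclei measured 21.7 µm2 against 16.8 µm2. With at least 10 C1q transcripts, the medians were 222 other transcripts and 52.7 µm2. The membrane stain had set the outline of 11.9% of members and 5.16% of cells without C1q, and nearly all other outlines came from the interior stain. Levels below are c.p.m. over summed counts, and levels of 2 genes are comparable only as far as their probe sets allow.

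Several scavenger and uptake receptors had large ratios, as the plot of levels by gene shows. Marco, a class A scavenger receptor, was read at 226 c.p.m. in members and 9.63 c.p.m. in cells without C1q, a ratio of 23.45 (95% interval 18.1 to 30.6). Cd163, which takes up haemoglobin bound to haptoglobin, reached 2035 against 95.1 c.p.m. (21.4-fold, 19.7 to 23.3). Siglec1, the sialic acid receptor CD169 of marrow and lymph node macrophages, was at 394 against 18.7 c.p.m. (21.1-fold, 17.4 to 25.6). Both of these receptors are used to define marrow macrophages. Folr2, a folate receptor of resident macrophages, was 18.7-fold higher (13.96 to 25.05), although at only 162 c.p.m. Mrc1, the mannose receptor, was 8.04-fold higher and Trem2, a lipid receptor, 9.02-fold. Fcgr1, the high-affinity IgG receptor, was 10.9-fold higher. Cd4 was 9.38-fold higher, at 563 c.p.m., and it stood at 1080 c.p.m. in T cell-gated cells, a gate that counts Cd4 itself.

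**Figure D1:**
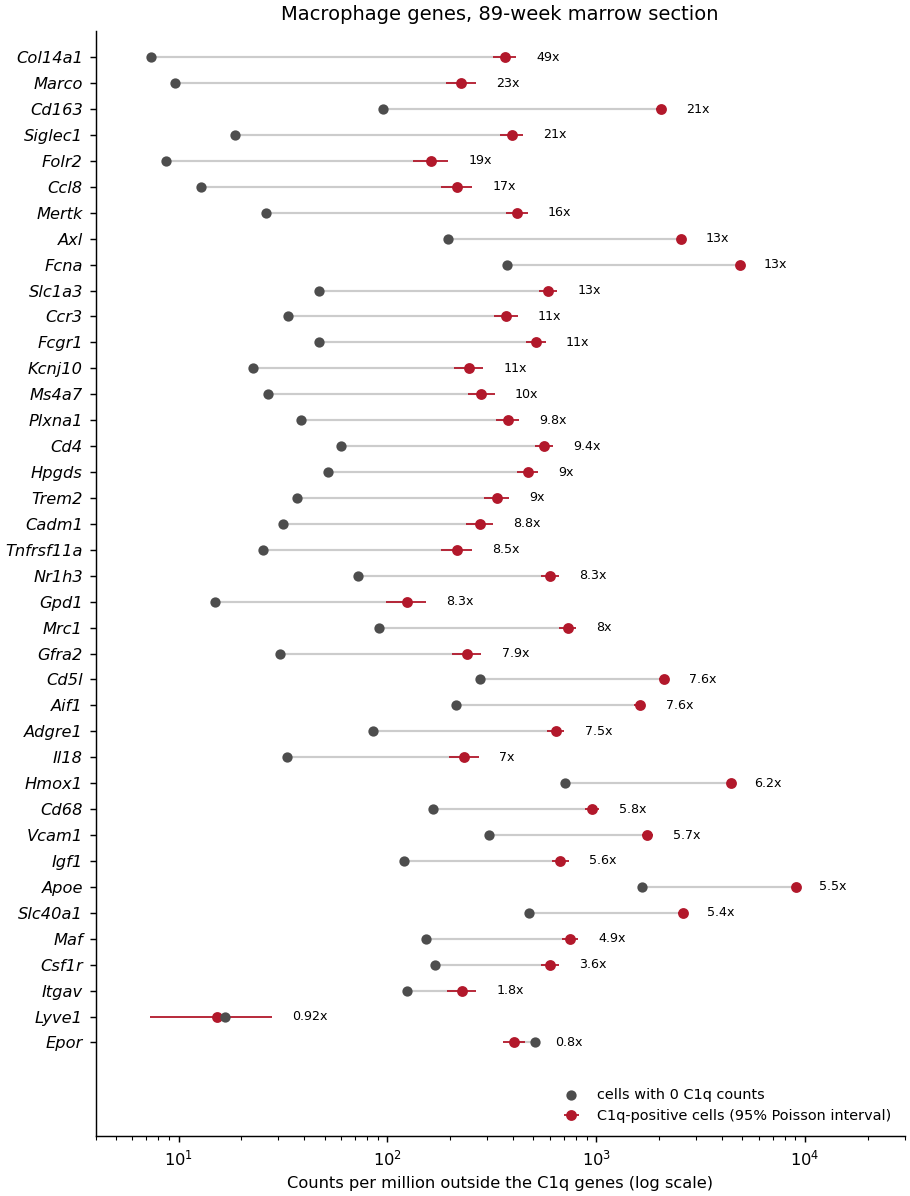
Level of each gene in C1q-positive cells (red, with exact 95% Poisson interval) and in cells with 0 C1q counts (grey) of the 89-week marrow section, in c.p.m. on a log axis, with the ratio printed beside it. Genes are those reported here of the resident and island macrophage lists and the 25 with the largest ratio, and apart from Itgav, Epor and Lyve1 every red point lies at least 2-fold to the right of its grey one.

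Of the TAM receptors, which bind phosphatidylserine through bridging proteins, Axl and Mertk were high, and Tyro3, counted 2 times in members, could not be evaluated. Axl, read at 2560 c.p.m. in members and 195 c.p.m. elsewhere, was 13.1-fold higher (12.27 to 13.98), and Mertk, at 416 against 26.4 c.p.m., was 15.8-fold higher (13.3 to 18.8). Lrp1, an uptake receptor, followed at 3.51-fold. Of 16 evaluated genes for the clearance of dying cells, 7 were at least 2-fold higher and none lower, with a median of 1.61-fold. Cd36, which red cell precursors and platelets also make, was near parity at 856 against 722 c.p.m., and Itgb3 was lower at 0.676-fold. Fcna and Cd5l encode proteins that macrophages secrete. Fcna, a ficolin that starts the lectin pathway, stood at 4868 against 374 c.p.m. (13.0-fold, 12.4 to 13.6), and Cd5l, a secreted scavenger protein, at 2110 against 276 c.p.m. (7.63-fold, 7.15 to 8.14).

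The island macrophage genes are those that the study names for this role, and they were listed with its results in view, so their direction here is not independent evidence. Of 13 on the panel, 11 were at least 2-fold higher, with a median of 6.22-fold. Vcam1, the adhesion molecule that binds erythroblast integrins, was at 1757 against 307 c.p.m. (5.72-fold, 5.34 to 6.12). Igf1, a growth factor for red cell precursors, was 5.60-fold higher, and Il18 7.04-fold. The integrin gene Itgav was 1.84-fold higher. Epor, the erythropoietin receptor, was lower, at 406 against 510 c.p.m. (0.796-fold, 0.702 to 0.901). Erythroid-gated cells without C1q held it at 1105 c.p.m. and monocyte-gated cells at 168 c.p.m.

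Iron recycling genes were read at high levels. Hmox1, the enzyme that opens haem, reached 4411 c.p.m. against 709 c.p.m. (6.22-fold, 5.96 to 6.50). Slc40a1, ferroportin, the iron exporter, reached 2595 c.p.m. against 479 c.p.m. (5.41-fold, 5.12 to 5.72). Of 8 evaluated iron and haem genes, 5 were at least 2-fold higher and none lower. The list holds erythroid genes too, and Tfrc, the transferrin receptor of erythroblasts, was at 0.881-fold.

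Lipid handling showed the same direction, with 9 of 12 evaluated genes at least 2-fold higher and a median of 4.26-fold. Apoe, a lipoprotein that macrophages secrete, stood at 9099 against 1655 c.p.m. (5.50-fold, 5.34 to 5.66). Lpl, lipoprotein lipase, was at 1870 against 356 c.p.m. (5.26-fold), and it stood in the fat list together with Pparg, a nuclear receptor that macrophages also use, at 3.08-fold. Adipoq, which fat cells and some marrow stromal cells make, was at 203 against 208 c.p.m., beside 813 c.p.m. in stromal-gated cells. Nr1h3, the oxysterol receptor LXR-alpha, was 8.32-fold higher. In the lysosome list 10 of 21 evaluated genes were at least 2-fold higher, among them the proteases Ctsc (4.99-fold) and Ctss (3.41-fold) and the lysosomal protein genes Grn (3.72-fold) and Lamp1 (2.56-fold).

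For antigen presentation, 3 of 6 evaluated genes were at least 2-fold higher. Cd74, the invariant chain of class II molecules, gave the most counts of any named gene, at 28366 against 13431 c.p.m. (2.11-fold, 2.08 to 2.15). B cells make it as well, and B cell-gated cells without C1q held 45452 c.p.m. The costimulatory genes Cd86 and Cd83 were 5.92-fold and 2.56-fold higher, whereas Ciita, the class II activator, was at 1.201-fold. Ccl8, a chemokine for monocytes and lymphocytes, was at 215 against 12.8 c.p.m. (16.8-fold, 13.1 to 21.4), and Cxcl16 was 7.25-fold higher. Of 9 evaluated chemokine genes, 6 were at least 2-fold higher, although the stromal chemokine Cxcl12 was at 0.931-fold. Among macrophage transcription factors 6 of 13 evaluated genes were at least 2-fold higher, including Maf (4.90-fold). Pattern recognition genes reached 2-fold in 8 of 12, with Clec4n, a fungal lectin receptor, at 6.28-fold. No interferon response gene of 11 evaluated did, beside 6.65% of all evaluated genes, and Gbp2 was the highest at 1.82-fold. The median of the interferon genes was 1.243-fold, beside 0.937-fold over all evaluated genes.

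The largest ratio of all evaluated genes belonged to Col14a1, a fibril-associated collagen best known from fibroblasts and tendon. It was evaluated only through its counts in members, which requires a ratio above 1. It was counted 239 times in members and 76 times in the far more numerous cells without C1q, 365 against 7.39 c.p.m., a ratio of 49.3 (38.0 to 64.7). The fibroblast and bone collagens did not share this difference. Col1a2 was at 600 against 559 c.p.m. (1.07-fold, 0.967 to 1.19), and Col1a1 was at 1.2-fold (1.003 to 1.425). Stromal-gated cells without C1q held Col14a1 at 5.70 c.p.m., monocyte-gated cells at 1.90 c.p.m., and resident macrophage-gated cells without C1q at 30.2 c.p.m. In each of 6 strips of the section, 1000 µm wide, the Col14a1 level of members (234 to 598 c.p.m.) lay above that of the cells without C1q (5.04 to 12.2 c.p.m.).

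Several of the other genes with large ratios are known chiefly from other tissues. Slc1a3, a glutamate transporter of glia, was 12.5-fold higher at 589 c.p.m., and Kcnj10, a glial potassium channel, 10.8-fold higher at 246 c.p.m. Ccr3, the eotaxin receptor of eosinophils, was 11.2-fold higher at 371 c.p.m., while cells of the mast cell, basophil or eosinophil gate held 46.4 c.p.m. on 7 counts. The list of this gate includes Ccr3. Its cells held Prss34 at 66618 c.p.m. and Mcpt8 at 37839 c.p.m., and Prg2 and Siglecf are not on the panel. Eosinophils were not separated within the gate, so their Ccr3 level is not known. Tnfrsf11a, which encodes RANK, the receptor that drives osteoclast formation, was 8.48-fold higher at 215 c.p.m., below the 401 c.p.m. of osteoclast-gated cells. That gate counts Tnfrsf11a itself. The remaining genes of this set were Plxna1, a semaphorin receptor (9.78-fold), Hpgds, a prostaglandin D synthase (9.03-fold), the adhesion gene Cadm1 (8.79-fold), Gpd1, a glycerol phosphate dehydrogenase (8.25-fold), Gfra2, a neurturin receptor (7.90-fold), and Ms4a7, a macrophage membrane protein (10.5-fold). Across the 6 strips, 131 of the 150 higher genes had their lowest level in members above their highest level in cells without C1q, as did 220 of all 2254 evaluated genes; the 150 had been chosen for being higher. Strips are parts of 1 section and no replicates.

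The genes at least 2-fold lower numbered 11. Igha, the IgA heavy chain of plasma cells, was at 130 against 442 c.p.m. (0.294-fold, 0.234 to 0.364), and Jchain, which joins IgA and IgM, at 429 against 1112 c.p.m. (0.385-fold). The B cell regulators Pax5, Irf4 and Rag1 lay between 0.473-fold and 0.483-fold, and with depth weighting Pax5 stood at 0.509-fold, Irf4 at 0.480-fold and Rag1 at 0.565-fold. Abca13, Neil1, Dgkg and Gsdme lay between 0.399-fold and 0.447-fold, with 25, 24, 37 and 24 counts in members. With depth weighting Abca13 stood at 0.535-fold, Neil1 at 0.439-fold, Dgkg at 0.424-fold and Gsdme at 0.678-fold. Trpc6, a cation channel, was at 0.374-fold and Thbs1, a platelet protein, at 0.494-fold. The direction of Thbs1 turned to 1.33-fold in members with at least 10 C1q transcripts and to 1.15-fold against monocyte-gated cells. The list of B cells had 2 of 9 evaluated genes at least 2-fold lower, with a median of 0.643-fold. The list of plasma cells had 2 of 4 evaluated genes at least 2-fold lower, and its summed level was 929 against 1933 c.p.m. The granulocyte list summed to 32480 against 50807 c.p.m., and none of its 10 evaluated genes was at least 2-fold lower. Ltf, lactoferrin, was at 0.644-fold and Mpo, myeloperoxidase, at 0.624-fold. Against cells without C1q weighted to the members' depth, Ltf stood at 0.963-fold and Mpo at 0.554-fold. The erythroid list was nearer to parity, at 38509 against 43308 c.p.m. (0.889-fold, 0.878 to 0.901).

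Transcripts of other cells were thus common inside C1q-positive outlines. At least 3 erythroid transcripts were held by 38.3% of members, 26.4% of cells without C1q and 40.4% of the latter weighted to the members' depth. For the granulocyte list the shares were 31.9%, 34.4% and 39.5%. Of the 4077 members, 1331 held fewer than 3 transcripts of every list for erythroid cells, granulocytes, megakaryocytes, B cells and T cells. Conversely, at least 3 C1q transcripts were held by 29.2% of resident macrophage-gated cells, 3.96% of erythroid-gated cells and 2.68% of granulocyte-gated cells, whose median depths were 131, 106 and 73. Among erythroid-gated cells with no other C1q-positive cell within 20 µm the share was 2.09%. How much of this mixture came from overlapping outlines in the section was not tested.

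Most resident macrophage genes, 18 of the 21 on the panel, were higher in cells near a member than away from one, as were 1098 of all 2254 evaluated genes (48.7%). Cells without C1q that had a C1q-positive cell within 20 µm (53998 cells) held the resident macrophage list at 4199 c.p.m., and those with none (66119 cells) at 3588 c.p.m. Cd5l (274 against 278 c.p.m.), Trem2 and Lyve1 were not higher near a member. For Cd163 the levels were 122 c.p.m. near a member and 71.7 c.p.m. away from one, and against the latter the ratio of Cd163 was 28.4. Against these distant cells 155 of 2255 evaluated genes were at least 2-fold higher. With each cell thinned to 50 transcripts outside C1q, Cd163 was found in 9.29% of 3681 members and 0.449% of 66358 cells without C1q. The unthinned shares were 19.3% and 0.759%.

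Monocytes are the other large mononuclear phagocyte population of marrow. Against 17531 monocyte-gated cells without C1q, 232 of 2257 evaluated genes were at least 2-fold higher (10.3%) and 82 at least 2-fold lower (3.63%). Since the gate was made from the monocyte list, the low ratio of that list (median 0.271-fold) is a consequence of it. The gated cells held the granulocyte list at 96273 c.p.m. and the monocyte list at 37929 c.p.m. Prtn3, a granulocyte list gene, was at 10189 c.p.m. in them and 9589 c.p.m. in granulocyte-gated cells. Plac8 and Chil3, genes of the monocyte list, were also high in granulocyte-gated cells (9457 and 9315 c.p.m.). The comparison is therefore not with monocytes alone. Csf1r, the receptor for macrophage colony-stimulating factor, which monocytes also carry, was at 1.87-fold, and the other 19 evaluated resident macrophage genes were at least 2-fold higher. Marco was 74.2-fold higher than in these cells, Cd163 34.5-fold and Col14a1 192-fold, the last against few counts. Erythroid genes reached 2-fold in 12 of 12, while 8 of 10 granulocyte genes were at least 2-fold lower.

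Levels followed the C1q count, also below the rule, as the plot by C1q count shows. Cd163 stood at 95.1 c.p.m. with 0 C1q transcripts, 384 with 1, 726 with 2, 1375 with 3 to 4, 2336 with 5 to 9 and 5194 with at least 10. Col14a1 went from 7.39 to 1055 c.p.m. over the same classes, Marco from 9.63 to 665 c.p.m. and Axl from 195 to 4642 c.p.m. Cd5l differed from them, with 2013 c.p.m. at 3 to 4 transcripts, 2356 at 5 to 9 and 1899 at 10 or more. The resident macrophage list summed to 8455 c.p.m. at 1 C1q transcript and 46109 c.p.m. at 10 or more, and the lysosome list to 14478 and 54370 c.p.m. The erythroid list was highest at 1 transcript (51032 c.p.m.) and lowest at 10 or more (15386 c.p.m.), and the granulocyte list went from 50807 c.p.m. at 0 to 13325 c.p.m. Cells with at least 10 C1q transcripts thus held the lowest levels of both lists. The megakaryocyte list ran otherwise, at 10741 c.p.m. with 0, 6848 c.p.m. with 5 to 9 and 12724 c.p.m. with at least 10 transcripts. Ppbp, a platelet chemokine, went from 4449 to 8910 c.p.m. between the last 2 classes, Thbs1 from 448 to 1331 c.p.m. and Itgb3 from 579 to 1250 c.p.m. The part of these transcripts in the levels of the cells with most C1q was not tested.

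**Figure D2:**
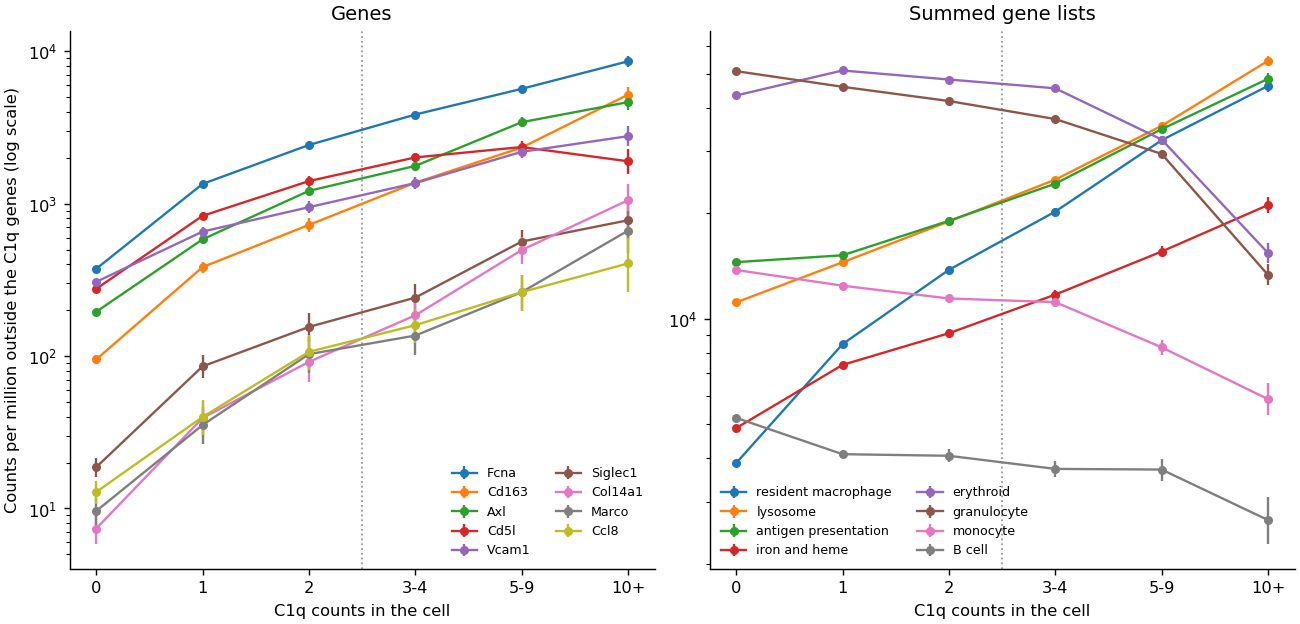
Level in c.p.m. (log axis) in cells of the 89-week marrow section grouped by their C1q count, for 9 genes (left) and 8 summed gene lists (right), with exact 95% Poisson intervals. The dotted line marks the rule of 3 transcripts; Cd163 is higher in each class from 95.1 to 5194 c.p.m., and the erythroid and granulocyte lists are lowest in cells with at least 10.

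Members were not uniform. Pairs of genes were counted in the same member and compared with the number given by their shares within 20 classes of depth; the 20 genes were chosen with the results known. Cd163 was found in 787 members and Col14a1 in 208, and 102 held both where 43.4 were predicted, a ratio of 2.35 (1.92 to 2.86). Cd163 and Marco shared 65 members where 27.2 were predicted (2.39), and Siglec1 and Trem2 shared 34 where 12.1 were predicted (2.81). These pairs were thus found together more often than their shares predicted. Other pairs were not, among them Cd163 with Cd5l (1.043, 0.8851 to 1.22) and Marco with Mertk (0.9875, 0.4263 to 1.946). The prediction was matched on depth and not on C1q count, with which Cd163, Col14a1 and Marco also rose. The part of the C1q count in these ratios was not tested. Cd5l was found more often with Slc40a1 (365 against 219, ratio 1.67) and with Vcam1 (269 against 163, 1.65), and less often with Col14a1 (27 against 39.6, 0.682). Fn1, fibronectin, and Ms4a6c, genes of the monocyte list, shared 43 members where 12.4 were predicted (3.46, 2.502 to 4.656). Cd163 and Fn1 shared only 8 where 24.3 were predicted (0.329, 0.142 to 0.649). Trem2 was found more often than predicted with Fn1 (1.977, 1.053 to 3.381) and with Ms4a6c (1.569, 1.066 to 2.227). Ccl8 was found less often than predicted with Slc40a1 (0.523) and Hmox1 (0.580).

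The members were unevenly spread over the section. In 648 tiles of 100 µm with at least 50 cells, they made up 2.54% of cells in the median tile (quartiles 1.28 and 4.17%), none in 30 tiles and 16.3% in the highest. Over the 6 strips their share ran from 1.53% to 3.63%. They stood close together, with a median of 9.95 µm between the centre of a member and the nearest other member, and 21.7 µm from a cell without C1q to the nearest member. Another member lay within 10 µm of 50.3% of members. Whether such pairs were 2 cells or 1 macrophage cut into several outlines was not tested. Members had 29.6 cells within 20 µm (SD 8.46), against 33.1 (SD 8.21) for cells without C1q, and those with at least 10 C1q transcripts had 26.5 (SD 8.53).

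**Figure D3:**
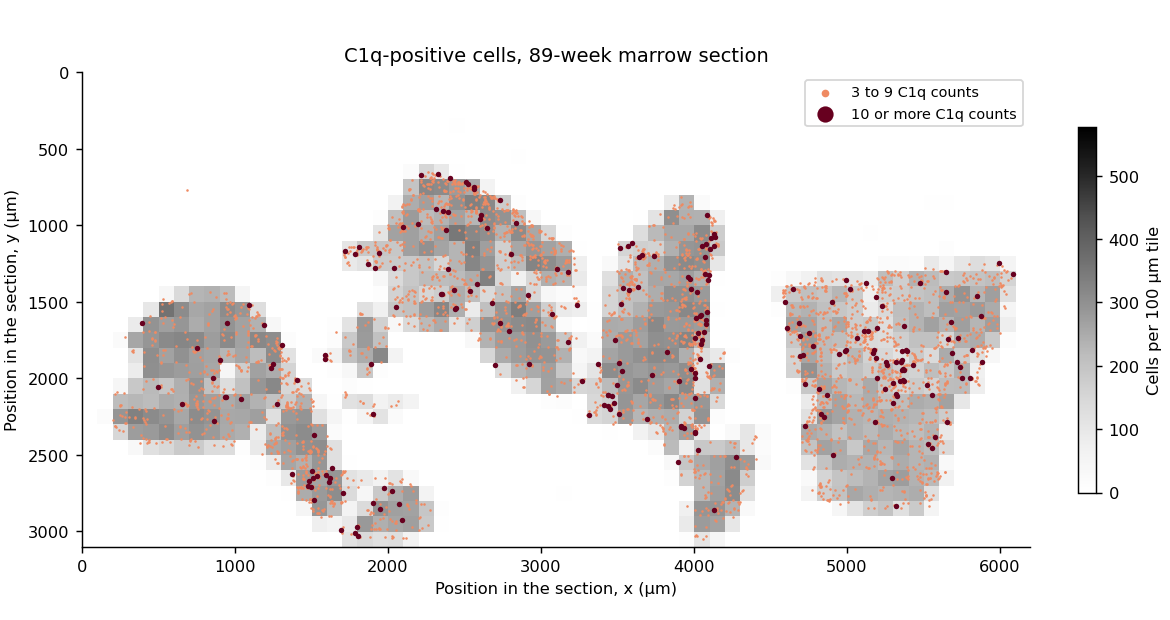
Position of the 4077 C1q-positive cells in the 89-week marrow section (µm), with 3 to 9 C1q counts in orange and 10 or more in dark red, over the number of cells in tiles of 100 µm (grey). They lie over most of the section, with none in 30 of the 648 tiles that hold at least 50 cells and 16.3% in the highest.

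The study asks which cells surround C1q-positive macrophages. For adult marrow the paper reports that they and erythroid cells lie near each other, also by Xenium. By Visium, a spot-based assay, it found this correlation weaker in the adult than in newborn marrow. The Xenium measure of the paper used annotated cell types, a network of neighbouring cells and simulations, whereas gates and distances between cell centres were used here. These measures were not compared. By the measure used here, erythroid cells were about as frequent around C1q-positive cells as around other cells. Among cells within 20 µm of a member, 27.45% were erythroid-gated (SD 19.6), against 26.7% (SD 18.3) around cells without C1q, a ratio of 1.03. The ratio was 1.04 against cells without C1q of the same 200 µm tile and 1.00 within 40 µm. It turned below 1 among cells with at least 50 transcripts (0.923) and among cells outlined by the membrane stain (0.905). Granulocyte-gated cells made up 31.7% around members and 34.1% around the others (0.929). The larger ratios belonged to rarer gates. Bone-gated cells were 0.671% of the cells around members and 0.331% around the others (2.03, and 1.52 within tiles), resident macrophage-gated cells 5.96% and 3.79% (1.575, and 1.336 within tiles), osteoclast-gated cells 0.625% and 0.416% (1.504) and T cell-gated cells 0.519% and 0.359% (1.45). Surrounding cells with at least 3 C1q transcripts were not counted in any gate but stayed in the total of surrounding cells. Such members made up 6.06% of the cells around members and 2.35% of those around cells without C1q, so they lower the gated shares more around members. The T cell gate counts Cd4, which was 9.38-fold higher in members. Members were not counted in this gate, and the part of Cd4 in other surrounding cells was not tested.

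Members in erythroid surroundings differed from the others. They were ordered by the erythroid-gated share within 20 µm, and split into 3 groups after the values were seen; the erythroid-rich group (1345 cells, 35.9% or more) was set against the erythroid-poor group (1366 cells, 16% or less), with erythroid genes left out of the totals. Cd5l stood at 3239 c.p.m. in the erythroid-rich, 2165 in the middle and 1081 in the erythroid-poor group, a ratio of 2.996 (2.57 to 3.51), whereas in cells without C1q the same surroundings gave 1.32. Over the 6 strips Cd5l in members ran from 989 to 3222 c.p.m., and the erythroid-gated share of cells from 22.8 to 33.9%. The part of position in the section was not tested. Gfra2 was 2.28-fold higher (1.48 to 3.61) and at 0.978-fold in cells without C1q, and Kcnj10 was at 2.299-fold and 1.525-fold. Larger ratios were read for Isg15 (4.55-fold), Epor (3.483-fold) and Cd36 (3.183-fold), each below its ratio in cells without C1q (4.856-fold, 4.179-fold and 4.037-fold). Hmox1 was 1.85-fold higher, Slc40a1 1.78-fold and Vcam1 1.595-fold, with 1.49-fold, 1.34-fold and 1.13-fold in cells without C1q. Cd163 (1.462-fold and 1.767-fold) and Mrc1 (1.549-fold and 1.774-fold) had the larger ratio in cells without C1q, and the island macrophage list as a whole was at 1.506-fold and 1.466-fold. The iron and haem list as a whole, which holds erythroid genes, was 1.765-fold higher in members (1.673 to 1.862) and 2.11-fold higher in cells without C1q. Siglec1 was at 0.766-fold and Itgav at 0.930-fold. Adgre1, which encodes F4/80, differed little (1.19, 0.930 to 1.52), and so did Axl (1.11), Marco (1.09) and Col14a1 (0.913, 0.644 to 1.29).

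Other genes ran the opposite way, as the plot of erythroid surroundings shows. Ccl8 was at 77.7 c.p.m. in the erythroid-rich and 491 c.p.m. in the erythroid-poor group (0.158-fold, 0.0887 to 0.267), and in cells without C1q at 0.297-fold. Cd74 was at 21803 and 40483 c.p.m. (0.539-fold, 0.520 to 0.558), against 0.909-fold in cells without C1q. Trem2 (0.437-fold) and Cxcl16 (0.415-fold) were lower as well, but they were also lower in cells without C1q there (0.372-fold and 0.548-fold). The resident macrophage list as a whole stood at 27705 and 27286 c.p.m. (1.015-fold, 0.979 to 1.053). Depth moved with the order, at a median of 142 other transcripts in the erythroid-rich and 119 in the erythroid-poor group, while the median C1q count was 4 in both. Transcripts of other cell types inside the members moved with it too. The erythroid list was at 5.94-fold in members and 6.29-fold in cells without C1q, the bone list at 0.285-fold and 0.397-fold, the monocyte list at 0.561-fold and 0.507-fold, the T cell list at 0.562-fold and 0.480-fold, and the granulocyte list at 0.605-fold and 0.458-fold. Their part in these ratios was not tested.

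**Figure D4:**
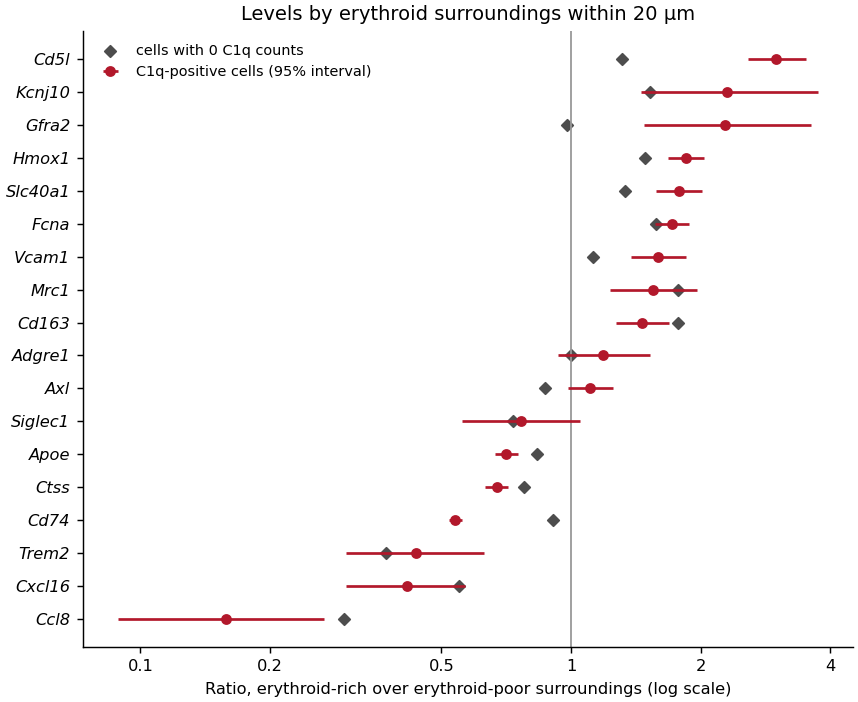
Ratio of the level in cells whose surroundings within 20 µm were richest in erythroid-gated cells to that in cells with the poorest surroundings, for C1q-positive cells (red, 95% interval) and, over the same ranges of erythroid share, for cells with 0 C1q counts (grey diamonds), on a log axis. Among the genes drawn, Cd5l is highest at 2.996 and Ccl8 lowest at 0.158 in C1q-positive cells, and the diamonds of Cd5l, Gfra2 and Cd74 lie nearer to 1.

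The same rule in the E13.5 fetal liver, an organ of red cell formation before birth, found 301 C1q-positive cells among 5254 (5.73%). Of 562 evaluated genes there, 74 were at least 2-fold higher (13.2%) and 23 at least 2-fold lower (4.09%). In the 531 genes evaluated in both sections, 45 were at least 2-fold higher in the marrow and 74 in the liver, with 37 in both (82.2% of the marrow genes and 50% of the liver genes). In at least 1 of the sections, 35 of these 37 passed the minimum of 50 counts only through the C1q-positive cells, which requires a ratio above 1 there, so the overlap is partly fixed by the filter. No gene was at least 2-fold higher in one section and 2-fold lower in the other. The 37 included Marco (23.45-fold in marrow, 99.4-fold in liver), Fcna (13.0 and 82.2), Cd5l (7.63 and 64.5), Hmox1 (6.22 and 28.75), Slc40a1 (5.41 and 14.2) and Vcam1 (5.72 and 5.69). All 6 were at least 2-fold higher in both sections. Spi1, which encodes PU.1, was at 0.909-fold in marrow and 11.4-fold in liver, and Lyz2, lysozyme, at 1.11-fold and 12.3-fold. Cells without C1q differ between the organs, with 41370 granulocyte-gated cells in the marrow section, and their part in these ratios was not tested.

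Some marrow genes were rare or without difference in the liver. Col14a1 was at 486 c.p.m. in C1q-positive and 507 c.p.m. in other liver cells (0.958-fold, 0.705 to 1.28). Cd163 was counted once in 105018 transcripts of C1q-positive liver cells, 9.52 c.p.m., beside 2035 c.p.m. in the marrow. Ccl8 and Cd4 were not counted there, which allows up to 28.6 c.p.m. each (3 counts), against 215 and 563 c.p.m. in the marrow. Cd163, Ccl8 and Cd4 were therefore not evaluated in the liver. Age, organ, fixation and the number of cells differ between these 2 sections and cannot be told apart. Mrc1 (4.32-fold), Axl (5.49-fold) and Lpl (3.94-fold) had smaller ratios in the liver than in the marrow, and Apoe was at 1.55-fold against 5.50-fold.

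**Figure D5:**
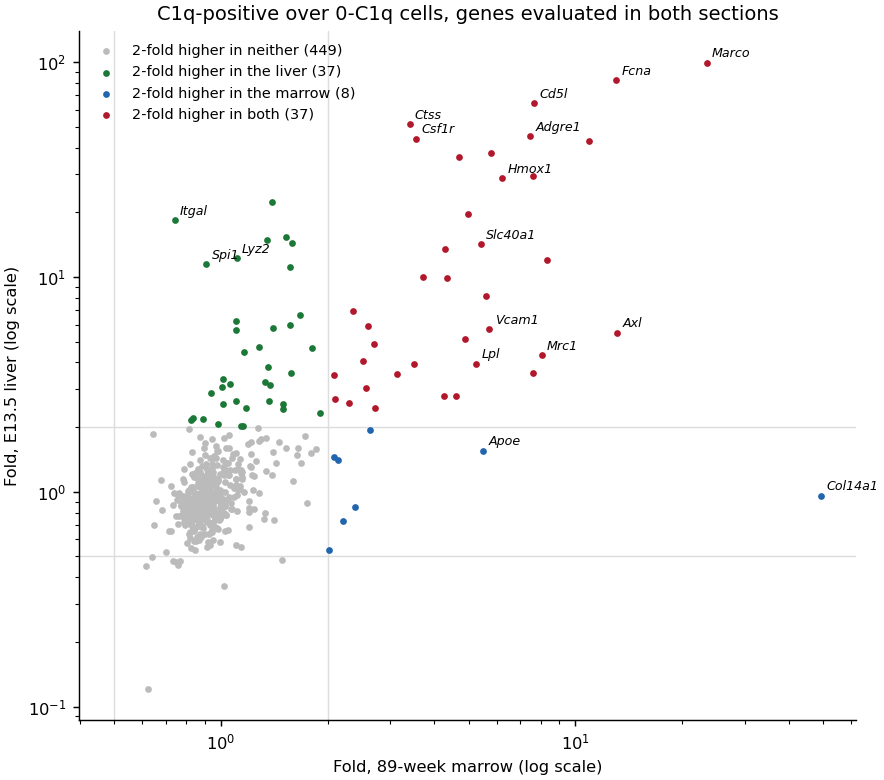
Ratio of the level in C1q-positive cells to that in cells with 0 C1q counts, in the 89-week marrow (x axis) and in the E13.5 liver (y axis), both log axes, for the 531 genes evaluated in both sections. Grey lines mark 0.5 and 2; 37 genes lie above 2 in both (red), 8 in the marrow alone (blue) with Col14a1 far to the right, and 37 in the liver alone (green).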

How the data were processed

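The deposited counts are whole numbers of transcripts per gene and cell, which the authors obtained with Xenium Onboard Analysis 3.1.0.4 per the file headers and which were not normalized. Outlines came from an interior stain, a boundary stain or nuclear expansion. The section held 13053261 gene counts in 143810 cells (median 60 per cell), and 3103 cells with fewer than 5 detected genes were left out. The most abundant negative control probe gave 18 counts. Counts were summed over cells and divided by the total outside the C1q genes, and ratios carry exact conditional 95% intervals, computed in Python 3.11.15 with numpy 2.4.6, scipy 1.17.1 and pandas 2.3.3. A cell was gated for a type by at least 3 counts of its marker list. A surrounding cell in a gate also held fewer than 3 C1q counts. The script was tested on simulated data. No test over samples was possible, because each condition is 1 section. No cell name was shared between the marrow and liver sections. Members, gene lists and gates were chosen with earlier results of these data known. The rule for naming took the C1q genes, all resident and island macrophage genes on the panel, the 25 largest and 15 smallest ratios, and in every other list the 4 genes with most counts and the gene with the largest ratio, and the text names a part of these chosen after their values were seen; outside the rule, Spi1, Lyz2, Fn1, Ms4a6c and Tyro3 were named after their values were seen. Of the resident macrophage list, 1 gene is not reported here by name.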

Additional observations from a re-analysis of the deposited data

How the results depend on the processing

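The share of C1q-positive cells, 2.90% as reported, was 1.02% with at least 5 C1q counts, 0.173% with at least 10, 2.62% with at least 2 subunits, 4.47% among cells with at least 50 other counts, 5.74% among boundary-stained and 2.74% among interior-stained outlines, and 0.946% without C1q-positive cells gated for another type; the last pair of settings was chosen after seeing the data. The 150 genes at least 2-fold higher, of 2254 evaluated, became 69 of 277 with at least 10 C1q counts and 64 of 851 with at least 200 counts per gene. The number was 94 of 977 with cells thinned to 50 counts, 37 of 570 in boundary-stained cells and 232 of 2257 against monocyte-gated cells. Of the 150, all those still evaluated stayed at least 2-fold higher with at least 10 C1q counts (46) and with thinned cells (87). In boundary-stained cells 28 of 32 did, and against monocyte-gated cells 135 of 150. In the other 10 settings the number of higher genes lay within 1.5 times. The number of genes at least 2-fold lower, 11 of 2254 evaluated, was less stable. It was 26 of 2261 after weighting by depth, and 31 of 1431 and 59 of 277 with at least 5 and 10 C1q counts. With at least 20 and 200 counts per gene it was 36 of 2892 and 4 of 851. It was 23 of 977 with thinned cells and 52 of 2254 with the mean of each cell's level. Against monocyte-gated cells it was 82 of 2257, and in boundary-stained cells 3 of 570. Without the members gated for another type it was 128 of 859, a setting that leaves out other lineages by construction. The erythroid ratio of 1.03 was 1.005 and 1.008 with at least 5 and 10 C1q counts, 1.05 with a gate of 5 counts, 1.002 within 40 µm and 1.01 in interior-stained cells, and it turned to 0.923 among cells with at least 50 counts, 0.905 in boundary-stained cells and 0.801 without members gated for another type. The granulocyte ratio of 0.929 was 0.910, 0.847, 0.949, 0.971 and 0.913 in the first 5 of these, 0.912 among cells with at least 50 counts and 0.837 without members gated for another type. Thbs1 turned to 1.33-fold with at least 10 C1q counts and to 1.15-fold against monocyte-gated cells; the causes were not tested. Over all settings, 1166 ratios of named genes stayed within their interval, 680 moved outside it and 2, both of Thbs1, were counted as reversed. Other named genes also changed direction without being counted so. Epor, lower than over all cells without C1q, was at 406 c.p.m. in members against 168 c.p.m. in monocyte-gated cells. Itgb3 was at 1250 c.p.m. with at least 10 C1q counts against 930 c.p.m. with 0. No paired analysis was possible because each condition is 1 section and no result comes from a test.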

Other observations

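Macrophage genes were also found in cells with no C1q transcript. In the marrow, 3065 such cells held at least 3 transcripts of the resident macrophage list, which chose them. They held Vcam1 at 1969 c.p.m., Cd5l at 1734 c.p.m. and Apoe at 10545 c.p.m.; these are genes of that list, and members held them at 1757, 2110 and 9099 c.p.m.. Of genes that the list does not hold, Hmox1 was at 1481 c.p.m., against 4411 c.p.m. in members, Slc1a3 at 119 against 589 c.p.m., Ccr3 at 76.4 against 371 c.p.m. and Cd4 at 107 against 563 c.p.m. Col14a1 was at 30.2 c.p.m. in these cells, against 365 c.p.m. in members and 7.39 c.p.m. over all cells without C1q.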
